A study of Mus musculus with 72 samples.

Results

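Scavenger receptors are cell surface and endosomal proteins with which macrophages bind and internalise modified lipoproteins, dying cells, microbes and spent proteins. The 8 genes described here were Msr1, Marco, Scarb1, Scarb2, Mrc1, Cd68, Lrp1 and Stab1, chosen by symbol from the 25124 genes of the RNA table, together with the 44 of 51983 peaks of accessible chromatin that the authors' annotation assigned to them. The cells were RAW264.7, a mouse macrophage-like line transformed by a leukaemia virus, given a lentivirus whose hairpin targets GFP (shGFP, the control), NCOR (shNCOR) or SMRT (shSMRT) and not otherwise treated. Each hairpin went into its own population, so the hairpin and the population cannot be told apart. RNA-seq and ATAC-seq each had 9 libraries, 3 per hairpin. Nothing in the labels says that the 3 came from separate cultures or infections, so the p-values reflect only library-to-library variation, part or all of which may be technical. The ATAC protocol in the labels speaks of wild-type cells, but its sample titles give a hairpin for each library, which was taken as its group. Being bulk libraries, they cannot tell fewer cells that express a gene from less RNA per cell.

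NCOR and SMRT are corepressors: scaffolds that bring histone deacetylase activity to transcription factors, among them nuclear receptors that control lipid handling in macrophages. Scavenger receptors feed that system from outside. Msr1 and Marco take up modified low density lipoprotein, Scarb1 exchanges cholesterol with high density lipoprotein, and Lrp1 clears lipoprotein remnants and protease complexes. The rest act on glycoproteins (Mrc1), on matrix debris (Stab1) or inside endosomes and lysosomes (Cd68, Scarb2). The study compared each knockdown with shGFP, and the difference between the knockdowns was tested directly as shSMRT against shNCOR. The first pair of comparisons share the 3 shGFP libraries, so their values are given side by side only.

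The RNA libraries held 39.1 to 49.1 M reads and the ATAC libraries 6.06 to 10.8 M. The share of ATAC reads in peaks was 50.6 to 54.0% in shGFP, 54.7 to 55.7% in shNCOR and 47.6 to 49.9% in shSMRT, and this difference moves with several peak results below. Ncor1, the gene of NCOR, was at 19.1 ± 0.973 RPKM (SD, n = 3) in shGFP, 4.04 ± 0.372 in shNCOR and 19.8 ± 0.748 in shSMRT. RPKM is reads per kilobase of exon, per 1 M reads. All 8 macrophage markers were expressed, with a summed level of 6845 to 7032 RPKM in shGFP, 8135 to 8465 in shNCOR and 9911 to 10483 in shSMRT. The 32 markers of T and B cells, fibroblasts and epithelium, endothelium, and neutrophils and mast cells were each under 1 RPKM in all 9 libraries, and 18 of them were at 0, Lyve1 of sinusoidal endothelium among them. Most of the macrophage sum was Lyz2 (lysozyme), at 5195 ± 65.9, 6548 ± 148.9 and 8104 ± 251.9 RPKM in shGFP, shNCOR and shSMRT. Adgre1 (13.2 ± 0.911, 19.4 ± 1.22 and 24.7 ± 0.787 RPKM), Ptprc (40.6 ± 1.84, 43.9 ± 2.29 and 50.5 ± 1.29) and Tyrobp (652.2 ± 29.0, 706.2 ± 17.8 and 721.9 ± 34.5) had means in the same order as Lyz2. The remaining markers took another course: Csf1r was at 388.1 ± 7.6, 321.0 ± 5.98 and 552.4 ± 11.2 RPKM, Itgam at 26.2 ± 1.40, 21.6 ± 0.863 and 37.9 ± 1.66, Spi1 at 287.1 ± 6.48, 286.8 ± 6.33 and 348.9 ± 4.09, and Fcer1g at 322.9 ± 10.1, 311.8 ± 13.8 and 354.2 ± 3.85. The part of these markers in the receptor results was not tested.

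The receptors spanned the whole range of expression, in the same order under all 3 hairpins. Cd68, a heavily glycosylated endosomal and lysosomal protein used as a macrophage marker, stood first at 489.8 ± 7.67 RPKM in shGFP, above 98.7% of the tested genes. Msr1 (class A scavenger receptor) followed at 92.1 ± 3.55 RPKM and Scarb1 (SR-BI) at 70.6 ± 1.58. Next came Lrp1 at 20.4 ± 2.06 RPKM and Scarb2 (LIMP-2) at 16.6 ± 0.329. Stab1 (stabilin-1) was low, at 0.914 ± 0.113 RPKM, Mrc1 (mannose receptor, CD206) lower still at 0.0960 ± 0.0295, and Marco had no read at all. Within each hairpin, no library of one gene overlapped the range of the next gene in this order.

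**Figure D1:**
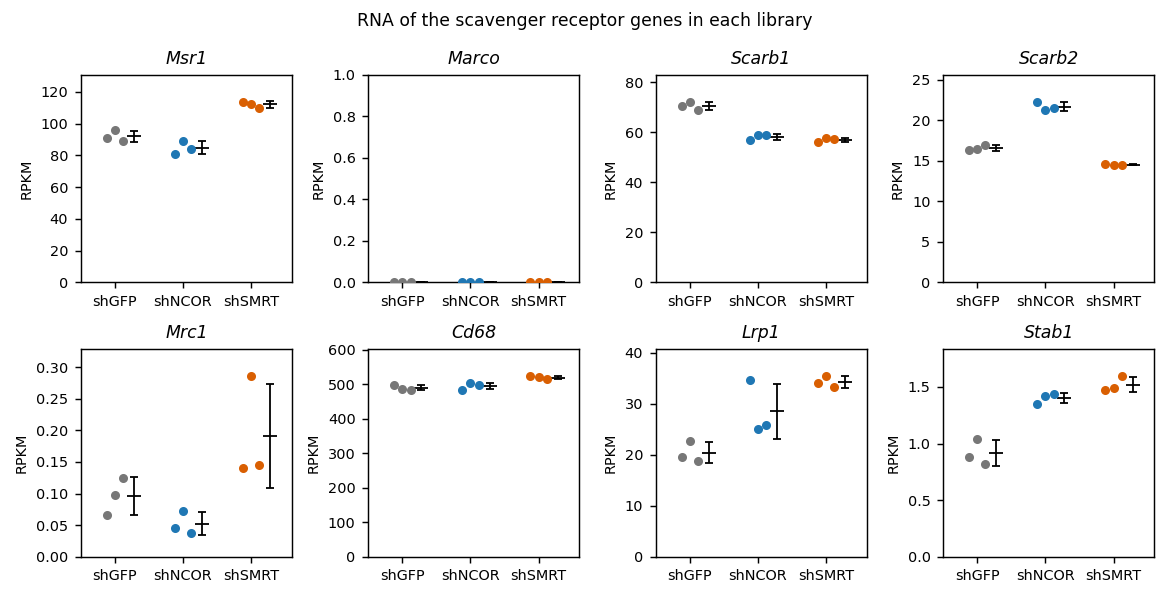
RPKM of the 8 receptor genes in each of the 9 RNA libraries (points, by hairpin), with the mean and SD of the 3 libraries of a hairpin as a black bar. Each panel has its own axis, starting at 0. Scarb1 is lower under both knockdowns, Msr1 is highest in shSMRT and Scarb2 in shNCOR, 1 shNCOR library stands above the other two for Lrp1, and Marco is at 0 throughout.

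The order of expression went with accessibility at the start site for most of the receptors, but not for Msr1. Measured against genes of its own level, Stab1 was an exception too. In the window from 250 bases before to 50 after the annotated start, a peak lay over Cd68, Scarb1, Scarb2 and Lrp1 and none over Marco, Mrc1, Stab1 or Msr1. Among protein-coding genes at 0 in all RNA libraries, 1.43% of 6560 had a peak there, and among tested genes at a mean of 50 RPKM or more, 97.2% of 1687 did. Between these, 22.9% of 4209 untested genes above 0 had a peak, and 83.7% of 3935 tested genes at a mean under 10 RPKM. Mrc1, at a mean of 0.113 RPKM, belonged to the 22.9% band. Stab1, at 1.28 RPKM, belonged to the 83.7% band but had no peak. Msr1, at a mean of 96.3 RPKM over the 9 libraries, belonged to the few abundant genes without one. Its nearest peaks were centred 0.848 kb inside the gene and 1.04 kb upstream, and the edge of the upstream one, the closer of the edges, was 625 bases from the window. The start site is that of 1 RefSeq transcript per gene, and whether Msr1 RNA begins elsewhere in these cells was not tested.

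The sequences upstream of 4 of these starts are shown because they set an open start site against a closed one: Cd68 and Scarb2 carried a peak, Marco and Mrc1 carried none and were at or near 0 in RNA. Each is the 250 bases before the start, in the direction of the gene, from RefSeq on GRCm38.p6, the build that browsers call mm10. Capitals mark any match, on either strand, to GAGGAAG (a core bound by ETS factors such as PU.1), TGANTCA (AP-1), AGGTCA (a core bound by nuclear receptors), CACGTG (E-box) or GGGCGG (GC box).
Cd68, chr11:69666171-69666420, minus strand: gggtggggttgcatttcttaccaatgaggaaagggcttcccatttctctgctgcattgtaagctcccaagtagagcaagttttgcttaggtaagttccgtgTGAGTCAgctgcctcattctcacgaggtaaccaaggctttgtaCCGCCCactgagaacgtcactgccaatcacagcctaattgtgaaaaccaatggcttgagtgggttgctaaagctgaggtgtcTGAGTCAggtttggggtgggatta
Scarb2, chr5:92505658-92505907, minus strand: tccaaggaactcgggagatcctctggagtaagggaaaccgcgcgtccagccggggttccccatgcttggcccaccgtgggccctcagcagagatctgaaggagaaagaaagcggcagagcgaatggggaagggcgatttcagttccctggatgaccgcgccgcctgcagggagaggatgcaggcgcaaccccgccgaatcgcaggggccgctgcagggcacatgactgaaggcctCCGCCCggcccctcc
Marco, chr1:120505025-120505274, minus strand: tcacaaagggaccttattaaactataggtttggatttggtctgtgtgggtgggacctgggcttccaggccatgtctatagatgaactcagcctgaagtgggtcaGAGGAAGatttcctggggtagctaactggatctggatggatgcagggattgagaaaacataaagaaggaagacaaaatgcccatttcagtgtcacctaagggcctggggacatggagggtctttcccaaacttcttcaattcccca
Mrc1, chr2:14229164-14229413, plus strand: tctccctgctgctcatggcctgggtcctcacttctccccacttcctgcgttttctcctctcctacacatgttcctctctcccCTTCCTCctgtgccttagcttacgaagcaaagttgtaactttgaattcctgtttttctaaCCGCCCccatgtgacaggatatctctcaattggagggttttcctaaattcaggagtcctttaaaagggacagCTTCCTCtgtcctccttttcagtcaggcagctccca

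Cd68 held 2 AP-1 matches, beginning 149 and 24 bases before the start, and 1 GC box at 106. Its sequence was 49.2% G or C with 4 CpG. Scarb2 held 1 GC box, at 15 bases, and no other match, in a sequence that was 65.6% G or C with 19 CpG. The median over the 32851 RefSeq promoters of the same length was 52.4% G or C with 6 CpG. Marco was at 47.6% with 0 CpG and held 1 GAGGAAG at 146 bases. Mrc1 was at 49.6% with 3 CpG and held GAGGAAG at 168 and 36 bases and a GC box at 108. The AP-1 letters occur in 6.75% of all promoters, GAGGAAG in 10.6%, the nuclear receptor core in 14.0%, the E-box in 6.02% and the GC box in 32.7%, so single matches to the commoner ones are ordinary. Neither the nuclear receptor core nor the E-box was found in the windows of the 6 receptors with a RefSeq promoter, which also include Lrp1 (67.2% G or C, 13 CpG, 1 GC box) and Stab1 (57.2%, 5 CpG, no match). No promoter sequence was used for Msr1 or Scarb1. A match describes letters and is not evidence of binding.

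Of the 8 genes, 6 passed the filter of at least 1 RPKM in at least 3 libraries and were tested; Marco and Mrc1 did not. Stab1 reached the filter only through the knockdown libraries, in which it was high, so it is left out of the counts here. In shNCOR against shGFP, 4 of the other 5 were called at an adjusted p under 0.05, 2 higher and 2 lower, where 37.6% of all 10789 tested genes were called, 17.6% higher and 20.0% lower. In shSMRT against shGFP all 5 were called, 3 higher and 2 lower, against 55.8% of all tested genes (24.4% higher and 31.4% lower). Between the knockdowns 3 of 5 were called, 2 higher and 1 lower in shSMRT, against 51.8% (22.8% and 29.0%). With so many genes called, these counts say little by themselves, and the sizes below are modest. Libraries did not overlap between the groups for 4, 5 and 3 of the 5 genes in the 3 comparisons, where 48.1%, 63.1% and 58.9% of all tested genes had groups that did not overlap.

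Among the receptors for lipoproteins, Scarb1 fell to the same level under both hairpins. Scarb1 (chr5:125277087-125341094, minus strand) encodes the receptor through which cells take cholesteryl ester from high density lipoprotein and release free cholesterol to it. Its RNA was at 70.5, 72.3 and 69.2 RPKM in shGFP, 56.8, 58.8 and 59.2 in shNCOR and 56.0, 57.7 and 57.4 in shSMRT. All 6 knockdown libraries lay below all 3 controls, and the knockdowns overlapped each other. On the log2 scale of RPKM plus 1, shNCOR differed from shGFP by -0.27 ± 0.03 (SE; adjusted p = 2.22e-05 by limma). The shSMRT difference was -0.30 ± 0.03 (adjusted p = 5.74e-06). Between the knockdowns the difference was -0.03, with a 95% interval of -0.09 to 0.03 (adjusted p = 0.397).

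Lrp1 (chr10:127538158-127621148, minus strand), a giant endocytic receptor that clears apolipoprotein E remnants and protease complexes, rose under both hairpins. It was at 19.7, 22.7 and 18.7 RPKM in shGFP, 34.7, 25.0 and 25.9 in shNCOR and 34.1, 35.5 and 33.2 in shSMRT. The first shNCOR library reached the shSMRT level while the other two stayed between shGFP and shSMRT. The log2 fold change by limma was 0.46 ± 0.11 in shNCOR (adjusted p = 0.00561) and 0.73 ± 0.11 in shSMRT (adjusted p = 0.000146). On the scale of RPKM plus 1 these were the largest among the 6 tested receptors. That scale understates Stab1, and over the other settings Stab1 reached up to 0.62 in shNCOR and Lrp1 up to 0.54. The knockdowns differed by 0.27 ± 0.11, which missed the threshold (adjusted p = 0.0505). Without shNCOR replicate 1 the difference was 0.42 and was called (adjusted p = 0.000480), and shNCOR then stood 0.31 above shGFP. In that library Lrp1 lay 0.43 above the mean of the other shNCOR libraries on the log2 scale. This was more than 99.4% of the 157 genes with at least 10000 bases of exon, Lrp1 itself being among the 157. The median deviation of these genes was 0.02.

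Msr1 (chr8:39581700-39642678, minus strand), the class A receptor for acetylated and oxidised low density lipoprotein, was highest in shSMRT and lowest in shNCOR. It was at 90.7, 96.1 and 89.4 RPKM in shGFP, 81.0, 89.1 and 84.1 in shNCOR and 113.9, 112.6 and 110.0 in shSMRT. The shSMRT libraries stood clear of the other 6, while the highest shNCOR library lay just below the lowest control. The log2 fold change was 0.28 ± 0.04 in shSMRT (adjusted p = 9.46e-05) and -0.12 ± 0.04 in shNCOR (adjusted p = 0.0325). The difference between the knockdowns was 0.40 ± 0.04 (adjusted p = 7.44e-06). The call in shNCOR ended in several other settings, for example without the filter on low values (adjusted p = 0.0625) or under quantile normalization (adjusted p = 0.182), and without shGFP replicate 1 (0.0516) or 2 (0.117) or shNCOR replicate 1 (0.0987) or 3 (0.0835), all adjusted p.

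Its class A relative Marco (chr1:120474538-120505024, minus strand), which binds bacteria and inhaled particles, had 0 reads in each of the 9 libraries. At 3 reads, the limit that a count of 0 allows, this corresponds to at most 0.0321 to 0.0402 RPKM per library. This limit covers counting error only.

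Of the lysosomal members, Scarb2 moved in opposite directions in the knockdowns, and opposite to Msr1. Scarb2 (chr5:92441311-92505657, minus strand) encodes LIMP-2, a lysosomal membrane protein that escorts cargo to lysosomes. It was at 16.4, 16.5 and 17.0 RPKM in shGFP, 22.3, 21.3 and 21.6 in shNCOR and 14.6, 14.5 and 14.5 in shSMRT. The 3 groups were fully separated. It rose by 0.37 ± 0.03 in shNCOR (adjusted p = 7.55e-06) and fell in shSMRT (log2 fold change -0.18 ± 0.03, adjusted p = 0.000777). The difference between the knockdowns, -0.55 ± 0.03 (adjusted p = 2.03e-07), was the largest of the 6.

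Cd68 (chr11:69664213-69666170, minus strand) hardly varied. It was at 498.6, 486.3 and 484.6 RPKM in shGFP, 484.1, 503.2 and 496.8 in shNCOR and 524.0, 520.3 and 514.2 in shSMRT. The shSMRT libraries were the 3 highest, and shGFP and shNCOR overlapped. Its log2 fold change was 0.08 ± 0.03 in shSMRT (adjusted p = 0.0166), 0.01 ± 0.03 in shNCOR (adjusted p = 0.702) and 0.07 between the knockdowns (adjusted p = 0.0407). With quantile normalization (adjusted p = 0.0695), or when shGFP replicate 3 (0.0671) or shSMRT replicate 1 (0.0596) was left out, Cd68 was no longer called against shGFP. The call between the knockdowns ended without any 1 of 6 libraries (shGFP replicate 3, shNCOR replicates 1 and 3, and each shSMRT replicate; adjusted p = 0.0603 to 0.119).

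**Figure D2:**
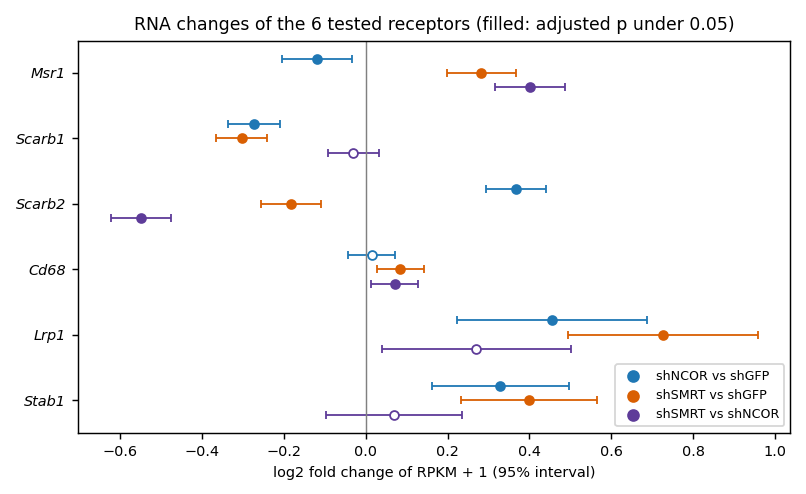
Log2 fold change of RPKM + 1 with its 95% interval for the 6 tested receptors (rows) in shNCOR against shGFP, shSMRT against shGFP and shSMRT against shNCOR (colours). Filled points have an adjusted p under 0.05. Msr1 and Scarb2 lie on opposite sides of 0 in the knockdowns, Scarb1 lies below 0 and Lrp1 and Stab1 above 0 in both.

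The receptors linked to alternative activation, Stab1 and Mrc1, ranked just above Marco. Stab1 (chr14:31139017-31168641, minus strand), a receptor of sinusoidal endothelium and tissue macrophages that clears the matrix protein SPARC, was at 0.878, 1.04 and 0.823 RPKM in shGFP, 1.35, 1.42 and 1.44 in shNCOR and 1.48, 1.49 and 1.60 in shSMRT. All 6 knockdown libraries lay above the controls. It rose by 0.33 ± 0.08 in shNCOR (adjusted p = 0.00539) and 0.40 ± 0.08 in shSMRT (adjusted p = 0.000965), values that are understated at this level by the added 1 RPKM. The knockdowns differed by 0.07, with an interval of -0.10 to 0.24 (adjusted p = 0.464). With a pass mark of 1 RPKM in 3 libraries, Stab1 was tested only through the libraries in which it was high, so its calls were partly set by the filter.

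The Stab1 reads also have a second possible source. Its last exon overlaps that of Nt5dc2, on the other strand, by 108 bases, and reads were counted on both strands. Nt5dc2 was at 30.0 ± 0.385 RPKM in shGFP, 29.0 ± 0.695 in shNCOR and 25.5 ± 1.05 in shSMRT, lower in shSMRT (-0.23 ± 0.04, adjusted p = 0.000263). If its reads were spread evenly, 38.7 to 50.3% of the 256 to 323 Stab1 reads in shGFP could be its own, and 20.9 to 28.8% in the knockdowns. With these taken off, Stab1 would be at 0.410 to 0.638 RPKM in shGFP, 0.960 to 1.05 in shNCOR and 1.11 to 1.26 in shSMRT. Even coverage was assumed and not checked, and the part of Nt5dc2 reads in the Stab1 values was not tested.

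Mrc1 (chr2:14229414-14332023, plus strand), the mannose receptor and a standard marker of alternative activation, gave 15, 20 and 26 reads in shGFP, 12, 17 and 8 in shNCOR and 33, 64 and 31 in shSMRT. These are 0.0660, 0.0970 and 0.125 RPKM, 0.0460, 0.0730 and 0.0380, and 0.141, 0.286 and 0.145. The shSMRT libraries were the 3 highest and the other groups overlapped. Mrc1 was below the filter. Fitted without the filter, shSMRT stood above shNCOR (0.18 ± 0.05, adjusted p = 0.0170) and shSMRT against shGFP was at 0.12 ± 0.05 (adjusted p = 0.0769), at a level of 8 to 64 reads a library.

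Across the 9 RNA libraries, 2 pairs of receptors varied most alike: Lrp1 with Stab1 (Pearson r = 0.87 on log2 values) and Msr1 with Cd68 (r = 0.84). Msr1 and Scarb2 ran opposite (r = -0.90), as did Scarb1 and Stab1 (r = -0.92). The genes most like each receptor over the same libraries were Rsu1 and Cacna1a for Msr1 (r = 0.99 each), Suv39h1 and Mcm7 for Scarb1 (0.99 each), and Hsp90aa1 (0.997) and Car2 (0.99) for Scarb2. Those for Cd68 were Ccr2 (0.97) and R3hdm2 (0.96), those for Lrp1 Ubr4 (0.99) and Wdfy3 (0.98), and those for Stab1 Myo9b and Skil (0.99 each). The libraries fall into 3 groups, so these values mostly describe shared group means and carry no test.

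The 44 peaks were 11 for Msr1, 13 for Scarb1, 9 for Lrp1, 4 for Stab1, 3 for Mrc1, 2 for Scarb2 and 1 each for Cd68 and Marco. By the authors' annotation 24 lay in introns (54.5%, against 40.8% of all peaks), 14 between genes, 3 at promoters (6.82%, against 17.7%), 2 in exons and 1 in a 3' UTR. Not all of these labels refer to the receptor's own transcript. The intron label was also given to peaks 24.9 and 22.4 kb upstream of the Mrc1 start and 4.25 kb upstream of that of Stab1. The 3' UTR peak lay 15.2 kb upstream of the Stab1 start. Accessibility is the number of reads in a peak after each library is scaled to 10 M reads. All 44 passed the filter of at least 10 in at least 3 libraries. In shNCOR against shGFP 1 of 44 was higher and 1 lower, where 8.58% of all 51469 tested peaks were called (4.58% higher and 4.0% lower). In shSMRT against shGFP 1 was higher and 2 lower, against 17.7% (6.81% and 10.9%). Between the knockdowns 0 were higher and 6 lower in shSMRT, against 24.4% (6.93% and 17.5%). Groups did not overlap for 11, 11 and 9 of the 44, against 25.9%, 35.2% and 35.7% of all tested peaks. In each comparison the share of receptor peaks called was below that of all peaks. When limma was run without its mean-variance trend, 1 call was left among the receptor peaks of all 3 comparisons, the intronic Lrp1 peak described next.

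**Figure D3:**
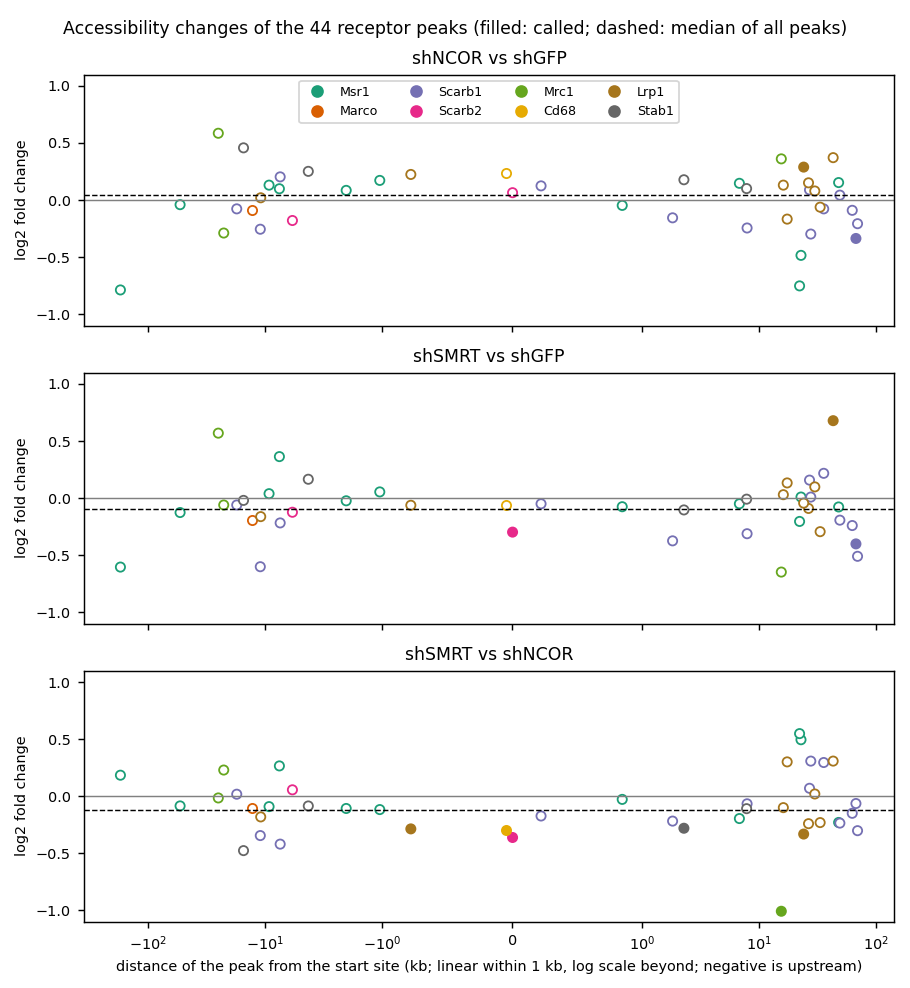
Log2 fold change of accessibility for the 44 receptor peaks (points, coloured by gene) against distance from the start site, in 3 comparisons. Filled points have an adjusted p under 0.05 and the dashed line is the median of all tested peaks (0.05, -0.09 and -0.12). The highest point in shSMRT against shGFP is the intronic Lrp1 peak at 42.9 kb, and the 6 called peaks between the knockdowns all lie below 0.

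The only receptor peak higher in shSMRT than in shGFP lay in an intron of Lrp1, 42.9 kb inside the gene (chr10:127577981-127578472). It was at 111.8, 81.6 and 90.4 scaled reads in shGFP, 118.8, 125.4 and 124.3 in shNCOR and 156.8, 166.8 and 137.2 in shSMRT. The 3 groups were separated, in the same order as Lrp1 RNA. Its log2 fold change in shSMRT was 0.68 ± 0.14 (limma, adjusted p = 0.000286), and it kept its call in all 19 other settings in which it was fitted (0.58 to 0.81, adjusted p of at most 0.0225). In shNCOR it was at 0.37 ± 0.14 and was not called (adjusted p = 0.0774). The difference between the knockdowns was 0.31 ± 0.14 (adjusted p = 0.0923), and it was called when libraries were scaled to reads in peaks (0.47, adjusted p = 0.0109).

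A second intronic Lrp1 peak, at 24.0 kb (chr10:127596555-127597673), was the most accessible of the 44. It was at 703.3, 620.6 and 618.8 in shGFP, 735.1, 810.4 and 829.7 in shNCOR and 543.6, 636.4 and 711.7 in shSMRT. The shNCOR libraries were the 3 highest and the other groups overlapped. It was higher in shNCOR than in shGFP (0.29 ± 0.08, adjusted p = 0.0187), a call that did not hold with quantile normalization (0.14, adjusted p = 0.0900) or when leaving out any 1 of shGFP replicates 2 and 3 and shNCOR replicates 2 and 3 (adjusted p = 0.0671 to 0.121). The remaining Lrp1 peaks inside the gene had values between 52.8 and 340.0 and no call against shGFP.

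The Scarb1 peak that fell under both hairpins lay 67.2 kb from the start (chr5:125273672-125274165), beyond the 3' end of the gene. It was at 289.6, 284.1 and 268.3 in shGFP, 234.9, 201.4 and 228.4 in shNCOR and 192.5, 213.3 and 229.2 in shSMRT. All 6 knockdown libraries lay below the controls, as they did for Scarb1 RNA. The log2 fold change was -0.34 ± 0.10 in shNCOR (adjusted p = 0.0267) and -0.40 ± 0.10 in shSMRT (adjusted p = 0.00373). The shNCOR call ended without any 1 of the shGFP libraries or shNCOR replicate 2 (adjusted p = 0.0565 to 0.135), and the shSMRT call under quantile normalization (adjusted p = 0.0640). The peak over the Scarb1 start, at 0.224 kb, was at 192.3, 196.9 and 212.1 in shGFP, 220.4, 216.2 and 219.5 in shNCOR and 172.8, 192.8 and 216.5 in shSMRT, with no call.

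Peaks at or just upstream of the start sites of Cd68, Scarb2 and Lrp1 differed between the knockdowns, but this depended on the scaling. The peak over the Scarb1 start was not called between them (-0.17 ± 0.11, adjusted p = 0.240 by limma). The Cd68 peak (0.048 kb upstream, chr11:69665918-69666518), over the promoter printed above, was at 487.5, 440.6 and 463.8 in shGFP, 538.5, 585.9 and 516.3 in shNCOR and 410.3, 448.1 and 478.2 in shSMRT. The Scarb2 peak (0.005 kb, chr5:92505356-92505949) was at 239.3, 226.9 and 235.1, at 254.7, 214.6 and 267.7 and at 172.8, 189.4 and 206.6 in the same order. In both, every shSMRT library lay below every shNCOR library. The Lrp1 peak 0.777 kb upstream (chr10:127621385-127622466) was at 534.5, 465.9 and 522.9, at 599.2, 597.4 and 582.3 and at 431.0, 508.2 and 520.7.

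In shSMRT against shNCOR these peaks were at -0.29 ± 0.08 (Cd68, adjusted p = 0.00684), -0.36 ± 0.11 (Scarb2, adjusted p = 0.00849) and -0.29 ± 0.08 (Lrp1, adjusted p = 0.00785). The Lrp1 peak at 24.0 kb (-0.33 ± 0.08, adjusted p = 0.00234) and the Stab1 peak at 2.28 kb (-0.28 ± 0.10, adjusted p = 0.0402) were also called lower. Scarb2 at its start was lower in shSMRT than in shGFP too (-0.30 ± 0.11, adjusted p = 0.0402). All of these calls ended when libraries were scaled to their reads in peaks (adjusted p = 0.105 to 0.485), and Cd68 and Lrp1 upstream were at 0.0077 and 0.022 under quantile normalization. Without shSMRT replicate 1 the Scarb2 difference between the knockdowns had an adjusted p of 0.0586 and that of Lrp1 upstream 0.0743, and without shNCOR replicate 3 Scarb2 was at 0.0604. Without shNCOR replicate 2 that of Cd68 was 0.0545. The Scarb2 call against shGFP ended without any 1 of the shGFP libraries or shSMRT replicates 1 and 2 (adjusted p = 0.0647 to 0.175), and the Stab1 call without any 1 of shNCOR replicates 1 and 2 and the shSMRT libraries (0.0543 to 0.168). The median of all peaks between the knockdowns was -0.12, and 0.04 when scaled to reads in peaks. Over all tested peaks the split was 3565 higher and 8999 lower, and 5120 higher and 2582 lower with that scaling.

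**Figure D4:**
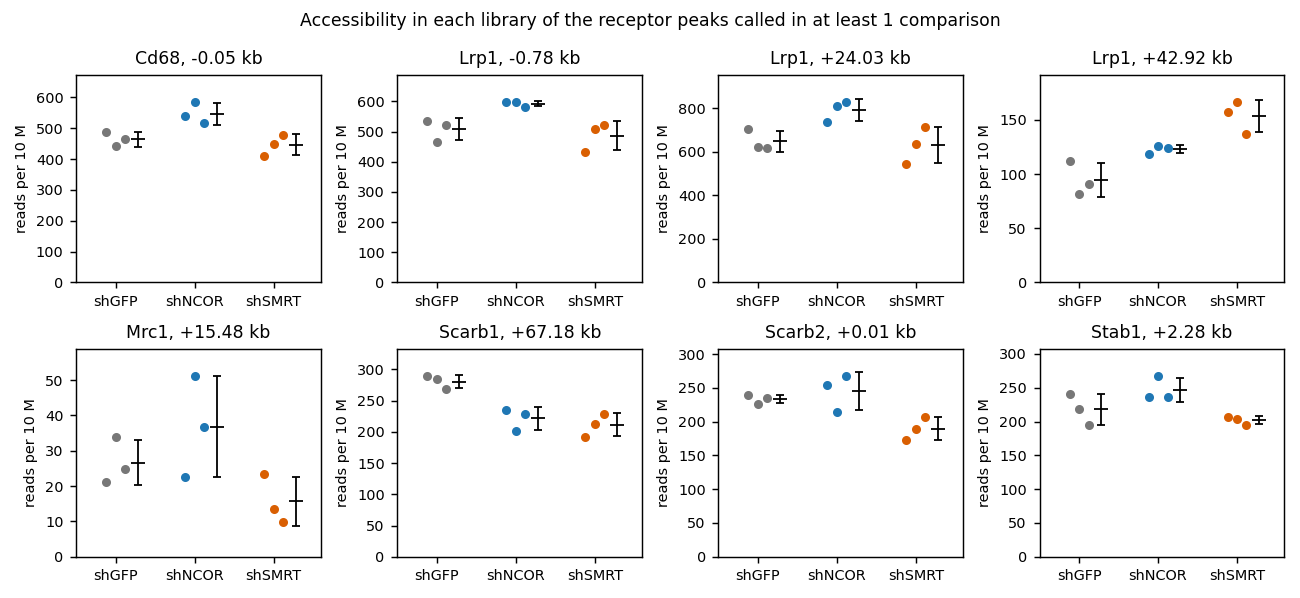
Accessibility, as reads scaled to 10 M per library, in each of the 9 ATAC libraries (points) for the 8 receptor peaks called in at least 1 comparison, titled by gene and distance from the start site, with mean and SD of each hairpin as a black bar. Axes start at 0. The Lrp1 peak at 42.92 kb steps up from shGFP to shNCOR to shSMRT, and the Scarb1 peak is lower in all 6 knockdown libraries.

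Scaled to reads in peaks, 3 other receptor peaks of the 44 were called higher in shSMRT than in shNCOR, where 5120 of all 51469 tested peaks were. They were Lrp1 at 42.9 kb, an intronic Msr1 peak at 22.8 kb (0.65 ± 0.22, adjusted p = 0.0347 by limma) and a peak 22.4 kb upstream of Mrc1 (0.39 ± 0.13, adjusted p = 0.0293). That Mrc1 peak had a median of 120.5 scaled reads over the 9 libraries, above the median of each Msr1 peak (at most 118.3). Mrc1 RNA was near 0, but this peak was labelled intron while lying upstream of the Mrc1 start used here. It was assigned to Mrc1 by the annotation, and a link to Mrc1 was not tested. The only Marco peak, 12.7 kb upstream, lay between 35.4 and 54.6 scaled reads in the 9 libraries, with no call. The Mrc1 peak at 15.5 kb was at 21.3, 33.8 and 24.9 in shGFP, 22.4, 51.2 and 36.8 in shNCOR and 23.5, 13.6 and 9.90 in shSMRT. It was called lower in shSMRT than in shNCOR (-1.01 ± 0.32, adjusted p = 0.0176) although the libraries overlapped, and the call ended scaled to reads in peaks (adjusted p = 0.0645) and without shNCOR replicate 2 (0.124) or shSMRT replicate 3 (0.0916). Mrc1 RNA was highest in shSMRT. None of the 11 Msr1 peaks was called in any comparison in the main scaling, and the nearest, at 0.848 kb, lay between 32.9 and 58.1.

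Related genes were taken from 6 lists, whose members were chosen from textbook roles with earlier results of these data known. Of 15 other scavenger receptors, 5 were at 0 in all RNA libraries and 4 were tested. Olr1 passed the filter only through shSMRT and is not counted. The other 3 were all higher in shSMRT than in shGFP, where 24.4% of all tested genes were higher, and in shNCOR 2 were higher and 1 lower, against 17.6% and 20.0%. Cd36, which takes up oxidised low density lipoprotein and fatty acids, was at 46.7 ± 2.50 RPKM in shGFP, 97.4 ± 3.47 in shNCOR and 172.9 ± 1.70 in shSMRT (1.05 ± 0.04 and 1.87 ± 0.04). Olr1, a receptor for oxidised lipoprotein best known from endothelium, was nearly absent in shGFP (0.0523 ± 0.0332 RPKM) and reached 1.55 ± 0.0734 in shSMRT, a call set in part by the filter. Cxcl16, a membrane chemokine that also binds oxidised lipoprotein, moved as Msr1 did, lower in shNCOR (-0.25 ± 0.04) and higher in shSMRT (0.46 ± 0.04). Colec12 rose in both (0.29 ± 0.03 and 0.33 ± 0.03).

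Of 9 tested relatives of Lrp1 2 rose and 3 fell in shNCOR, where 37.6% of all tested genes were called, and 2 rose and 2 fell in shSMRT, where 55.8% were. Lrp8, a receptor for reelin and apolipoprotein E, fell in both (-0.48 ± 0.06 and -0.58 ± 0.06), and Lrp11 rose in both (0.67 ± 0.07 and 0.78 ± 0.07). The sorting receptor Sorl1 rose in shNCOR (0.79 ± 0.06) and was at 0.00 ± 0.06 in shSMRT, a difference of -0.79 between the knockdowns (adjusted p = 1.13e-06). Lrp12 fell in shNCOR (-0.39 ± 0.06), and Lrp5, a Wnt co-receptor, was lower in shSMRT than in shNCOR (-0.16 ± 0.04, adjusted p = 0.00356). In shSMRT Lrp6 was at 0.19 ± 0.05, not called once the trend with exon length was removed (adjusted p = 0.229). None of the 3 relatives of Mrc1 (Mrc2, Pla2r1 and Ly75) was tested.

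Among 9 tested chaperones and adaptors of the receptors, 1 rose and 2 fell in shNCOR and 4 rose and 2 fell in shSMRT, near the 37.6% and 55.8% of all tested genes that were called. Dab2, a clathrin adaptor for endocytic receptors, took opposite directions: 78.1 ± 3.13 RPKM in shGFP, 46.8 ± 0.794 in shNCOR and 119.1 ± 1.77 in shSMRT (-0.72 ± 0.03 and 0.60 ± 0.03). Snx17, which recycles Lrp1, fell in both (-0.23 ± 0.04 and -0.21 ± 0.04). Hsp90b1, an endoplasmic reticulum chaperone, fell in shSMRT (-0.34 ± 0.02) and was not called in shNCOR (0.04 ± 0.02). The sorting adaptor Gga2 rose in shNCOR (0.19 ± 0.04). Its relative Gga3 was higher in shSMRT than in shNCOR (0.12 ± 0.04, adjusted p = 0.0308).

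Of 10 tested ligands and cargo, 4 rose and 3 fell in shNCOR (17.6% of all tested genes were higher and 20.0% lower) and 5 rose and 2 fell in shSMRT (24.4% and 31.4%). Lpl, the lipoprotein lipase that also binds Lrp1, was at 405.8 ± 14.7 RPKM in shGFP, 461.6 ± 13.0 in shNCOR and 725.2 ± 9.34 in shSMRT (0.19 ± 0.03 and 0.84 ± 0.03). The urokinase system that Lrp1 clears split between the hairpins. Plaur, the urokinase receptor, was at -0.98 ± 0.03 in shNCOR and 0.34 ± 0.03 in shSMRT, and urokinase itself, Plau, at -0.25 ± 0.05 and 0.66 ± 0.05. Chid1, a chitinase-like protein that binds stabilin-1, was at -0.11 ± 0.04 in each (adjusted p = 0.0312 and 0.0215). Calr, a chaperone that on the surface of dying cells is bound by Lrp1, was at 0.16 ± 0.03 and -0.09 ± 0.03, the second not called with the exon length trend removed (adjusted p = 0.318).

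The lysosomal membrane list held 6 tested genes, of which 3 rose and 2 fell in each knockdown, beside 37.6% of all tested genes called in shNCOR and 55.8% in shSMRT. Lamp1, an abundant lysosomal membrane glycoprotein, changed as Scarb2 did: 377.1 ± 6.32 RPKM in shGFP, 471.0 ± 3.45 in shNCOR and 302.3 ± 2.42 in shSMRT (0.32 ± 0.02 and -0.32 ± 0.02). Lamp2 (0.29 ± 0.03 and 0.36 ± 0.03) and the tetraspanin Cd63 (0.32 ± 0.04 and 0.45 ± 0.04) rose in both. Tmem192 was at -0.19 ± 0.04 and -0.18 ± 0.04, the second not called with the exon length trend removed (adjusted p = 0.0674), and Laptm5 fell in shNCOR (-0.18 ± 0.03). Laptm4a was higher in shSMRT than in shNCOR (0.19 ± 0.03, adjusted p = 0.000660). Values in parentheses in these lists are log2 fold changes in shNCOR and shSMRT against shGFP, with SE. Those described as having risen or fallen had adjusted p-values of at most 0.00243.

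**Figure D5:**
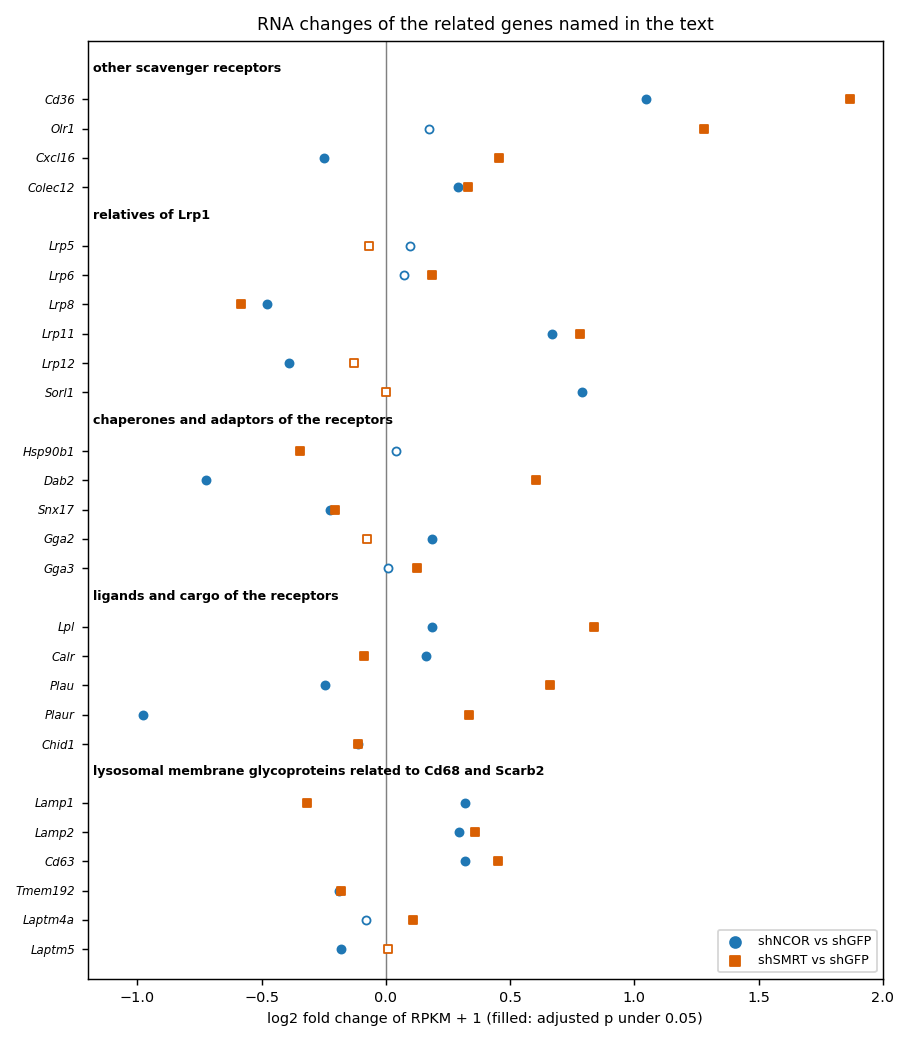
Log2 fold change of RPKM + 1 against shGFP for the genes of 5 related lists that the text names, circles for shNCOR and squares for shSMRT, filled where the adjusted p is under 0.05. Cd36 and Olr1 lie farthest right, Dab2, Plau and Plaur lie on opposite sides of 0 in the knockdowns, and so does Lamp1.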

How the data were processed

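RNA-seq and ATAC-seq values of 18 libraries were used (3 per hairpin and assay, grouped by the titles); the other 54 samples were not analysed here. Per the file headers, the deposited RPKM came from HOMER, which counted exon reads of both strands for 1 RefSeq transcript per gene on mm10, and the deposited ATAC values are HOMER read counts in a merged peak list on mm10, brought to 10 M reads per library. Among the tools in the submitters' processing notes are HISAT2, Bowtie2, MACS2, HOMER and DESeq2. Their versions, the ATAC peak caller and any read shift for the transposase are not given in the sources used here. Decimal commas stand in the ATAC file, which were read as points, and 1 peak without a number was left out.

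Low values were whole multiples of 1 read (100% within 0.1 read), which gave depths and read counts. All library pairs of a group differed by more than sampling noise, at a chi-square of 1.65 to 9.65 per feature. With limma 3.58.1 in R 4.3.3, a model with a mean-variance trend was fitted on log2(RPKM + 1) for 10789 genes and log2(value + 5) for 51469 peaks, with all 9 libraries of an assay in 1 fit and Benjamini-Hochberg adjustment over all features at 0.05. The fits were tested on simulated data. Alternatives changed the pseudocount, filter, scaling, test, libraries or replicate block; limma voom on recovered reads and removal of an exon length trend were added after seeing the data. All members are named. From each related list up to 4 called genes per comparison are named, the 2 largest and 2 smallest. Peaks named are the nearest to each start and the called ones at each extreme, and other peaks were chosen after their values were seen. The members and lists were chosen with earlier results of these data known. A check of the SMRT hairpin's target and some genes of the lists, which the counts include, are not reported here. RefSeq promoters matched 6 of 8 members, and peak sequences were not searched for motifs. Figures were drawn with matplotlib 3.10.9.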

Additional observations from a re-analysis of the deposited data

How the results depend on the processing

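The RNA calls of Scarb1, Scarb2 and Lrp1 against shGFP, and of Msr1 in shSMRT, held in every alternative in which they were fitted, leave-one-out fits included. Those of Stab1 also held in the 19 alternatives in which it was fitted, the filter at 5 RPKM not among them. Its calls were partly set by the filter, so this lends them no support. The counts of receptors below include Stab1, with which 3 were higher in shNCOR and 4 in shSMRT, where 17.6% and 24.4% of all tested genes were. Receptors called lower in shNCOR numbered 1, in place of 2, without the filter, under quantile normalization, with 6 libraries in the fit, without the trend and with the exon length trend removed, as Msr1 lost its call (adjusted p = 0.0600 to 0.182), and 1 to 2 when 1 library was left out. Between the knockdowns 1 receptor, in place of 2, was higher with 6 libraries or no trend, and 1 to 3 with 1 library left out, as Cd68 lost and Lrp1 gained a call (Lrp1 adjusted p = 0.0379 at a filter of 5 RPKM, 0.0274 under quantile normalization, 0.00624 with voom and 0.0427 without shGFP replicate 2). Of all 10789 tested genes, 2161 were lower in shNCOR in the main fit. The number was 2025 under quantile normalization, 1993 with 6 libraries, 2069 without the trend and 2315 with the exon length trend removed. It was 1819 to 2128 with 1 library left out, and 2193 of 16119 without the filter. Genes higher between the knockdowns numbered 2465 in the main fit, 2402 with 6 libraries, 2483 without the trend and 2202 to 2460 with 1 library left out.

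Counts within 20 kb below take only the receptor peaks within 20 kb of their start site, and no share of all peaks is given for them. Against shGFP, receptor peaks higher in shNCOR numbered 0 under quantile normalization, without the trend and within 20 kb. They numbered 2 with 6 libraries, 3 with voom and 0 to 3 with 1 library left out (the 3 without shSMRT replicate 1, where the Cd68 and Lrp1 start peaks reached adjusted p = 0.0402 and 0.0417). Those lower numbered 0 without the trend and within 20 kb and 0 to 1 with 1 library left out. In shSMRT 2 peaks were higher under quantile normalization and 0 within 20 kb; lower ones numbered 0 under quantile normalization and without the trend, 1 scaled to reads in peaks or within 20 kb, and 1 to 3 with 1 library left out. Between the knockdowns the counts higher and lower were 3 and 1 under quantile normalization and 3 and 0 scaled to reads in peaks, 0 were lower without the trend, and 0 to 1 were higher and 3 to 6 lower with 1 library left out. With voom the calls of Mrc1 at 15.5 kb and Stab1 at 2.28 kb ended (adjusted p = 0.0573 and 0.0561). With 6 libraries that of Stab1 ended (adjusted p = 0.0514). Over all peaks in shSMRT against shGFP the split went from 3506 higher and 5595 lower to 4543 and 2800 scaled to reads in peaks and 4390 and 3358 under quantile normalization; in shNCOR it went from 2357 and 2057 to 1458 and 2572 and to 1643 and 2020; between the knockdowns it was 3550 and 2401 under quantile normalization. Without the trend it was 842 and 1057 in shNCOR, 2352 and 1743 in shSMRT and 2365 and 2468 between them. With voom it was 2627 and 1655, 4273 and 6697, and 2939 and 8616 in the same order. With 6 libraries it was 2358 and 2004, 4187 and 6383, and 3202 and 7932. With 1 library left out it was 1228 to 2457 and 1156 to 2131 in shNCOR, 2409 to 3933 and 2710 to 6247 in shSMRT, and 2518 to 3662 and 6402 to 8720 between them. All are of 51469 tested peaks. The cause was not tested.

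Values that changed sign were not called in the alternative. Under quantile normalization they were, in RNA, Cd68 in shNCOR (-0.021) and Scarb1 (0.031) and Stab1 (-0.065) between the knockdowns, and Scarb1 also with the exon length trend removed (0.0040). In ATAC under quantile normalization they were the start peaks of Scarb1 (0.10 in shSMRT, 0.055 between the knockdowns), Scarb2 (-0.013 in shNCOR), Cd68 (0.12 in shSMRT, 0.0077 between) and Lrp1 (0.11 and 0.022), and Stab1 at 2.28 kb (0.063 in shSMRT). Scaled to reads in peaks they were Msr1 at 0.848 kb (0.014 in shSMRT, 0.13 between), Marco (0.049 between), Scarb1 at the start (0.048 in shSMRT), Scarb2 (-0.0067 in shNCOR), Cd68 (0.040 in shSMRT) and Lrp1 upstream (0.037 in shSMRT). With 1 library left out the ranges that crossed 0 were -0.19 to 0.17, -0.22 to 0.14 and -0.12 to 0.087 for Msr1 at 0.848 kb in the 3 comparisons, -0.24 to 0.034 in shNCOR and -0.23 to 0.046 between the knockdowns for Marco, and, in shSMRT, -0.13 to 0.028 for Scarb1 at the start and -0.12 to 0.021 for Lrp1 upstream.

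For libraries with the same replicate number the correlation of deviations was -0.06 to 0.10 in RNA and -0.04 to 0.02 in ATAC. For different numbers it was -0.13 to 0.08 in RNA and -0.04 to 0.05 in ATAC. These ranges overlap, so they do not settle whether replicate numbers pair the libraries. With the replicate number as a block the receptor counts in RNA, Stab1 included, were the same (3 higher and 2 lower in shNCOR, 4 and 2 in shSMRT, 2 and 1 between), and in ATAC 5 rather than 6 peaks were lower between the knockdowns, the Stab1 peak being at -0.28 (adjusted p = 0.0508). Of all 10789 tested genes, 1996 were then higher and 2259 lower in shNCOR, 2686 and 3470 in shSMRT, and 2522 and 3218 between. Of all 51469 tested peaks, 8554 were lower between the knockdowns. An edgeR fit on recovered reads was planned and not run. Depth limits Mrc1, Marco and the weakest peaks.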
